A study of Mus musculus with 9 samples.

Results

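The interferon regulatory factors (IRFs) are transcription factors that bind DNA through a conserved N-terminal domain and switch on type I interferons, interferon-stimulated genes and inflammatory genes. Ribosome footprints on 8 genes of this family, Irf1, Irf2, Irf3, Irf4, Irf5, Irf7, Irf8 and Irf9, were compared in mouse macrophages. The members were taken by gene name from the 16921 gene identifiers of the deposited RiboSeq table, and all 8 were found.

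RiboSeq sequences the mRNA fragments that ribosomes protect, so that a gene's value depends on both the amount of its mRNA and how heavily that mRNA is translated. The cells were immortalized bone marrow-derived macrophages (BMDMs) without functional tristetraprolin (TTP, encoded by Zfp36), a protein that binds AU-rich elements in mRNA 3′ ends and promotes mRNA decay. BMDMs had been immortalized with human c-Myc and oncogenic Ras, and carried a doxycycline-inducible vector for GFP alone, for the fusion GFP-TTP, or for GFP-TTP-AA, in which alanine replaces the serines phosphorylated by the kinase MK2 (S52A and S178A). Each vector defined 1 transduced cell line, so that a difference between constructs and a difference between lines cannot be told apart. All 9 libraries, 3 per construct, came from TTP-deficient cells that received 1 µg/ml doxycycline for 6 h and 1 µg/ml LPS for 1 h, and there was no unstimulated or TTP-competent group.

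IRFs act at several steps of the LPS response. Engagement of TLR4 activates the kinase TBK1, which phosphorylates IRF3, and IRF3 then drives the first interferon-β. Secreted interferon signals through its receptor to the complex ISGF3, which contains IRF9 and induces a broad set of genes, among them Irf7. IRF5 acts below MyD88 on inflammatory cytokine genes, IRF1 and IRF2 are an activator and a repressor that share binding sites, and IRF8 and IRF4 act with PU.1 in myeloid and lymphoid cells.

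Irf9 and Irf5 were the family members that differed between GFP-TTP-AA and GFP-TTP. Footprints on Irf9 were 2.23-fold higher with the mutant, and footprints on Irf5 were 1.52-fold higher, both as fold changes that the authors' model had shrunken toward 0. The other 5 tested members, Irf1, Irf2, Irf3, Irf7 and Irf8, did not pass the test in this comparison. Over all genes tested, 10.3% passed there. No member passed the test when either TTP line was compared with GFP. Few genes did in those comparisons, 2.11% for GFP-TTP and 3.09% for GFP-TTP-AA. Irf4 had hardly any footprints and could not be tested.

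The deposited value of a gene in a library is not an observed count. It is the value that the authors' DESeq2 model fitted, and the log2 values were the sum of a group term and a replicate term for each gene. The 3 libraries of a group therefore show the same replicate pattern in every group, and the spread among them is the fitted replicate term and not the error of the group difference. Errors below come from the standard errors (SE) in the deposited comparison tables. Fold changes and SE are those after shrinkage by the authors' model. Each 95% interval below is therefore for the shrunken value and need not hold the unshrunken change. Each log2 fold change was divided by its SE (a Wald test, two-sided) and the p-values were adjusted by the Benjamini-Hochberg method over all genes tested in that comparison. Labels name the replicates biological, but do not say how separate their cultures were. Levels are the fitted values divided by the size factor of the library, and group levels are geometric means over 3 libraries.

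Size factors of the libraries ranged from 0.415 to 2.14, and the sums of the fitted values from 2570292 to 12804501. The level of Zfp36, which counts the transgenes as well as the endogenous gene, was 459.9 with GFP, 927.2 with the wild-type fusion and 1532 with GFP-TTP-AA. The mutant line thus had more Zfp36 footprints than the wild-type line (log2 fold change 0.72, SE 0.250, adjusted p = 0.041). For the proteins, the paper reported similar amounts of both fusions by western blot. Macrophage genes were present in all libraries, with summed levels of the 8 markers between 67990 and 118501. The listed markers of dendritic cells, B cells, T cells and fibroblasts were near 0, with summed levels of at most 4.12 in any library. These sums cover 3 of 5 dendritic cell, 2 of 5 B cell, 1 of 4 T cell and 2 of 3 fibroblast markers. The other markers of these cell types had no values. Of 5 neutrophil markers only S100a8 and Mpo were in the table, and Mpo was at 0.123 to 0.128.

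Within the family, footprint levels per kb of coding sequence allowed genes of different length to be set side by side. Irf1 was the highest at 520.1 per kb (mean of the 9 libraries), followed by Irf2 at 391.9, Irf8 at 293.0, Irf3 at 195.3 and Irf5 at 187.4. Irf9 was far lower at 41.2 per kb. Irf7 and Irf4 were at the bottom, at 7.77 and 0.669 per kb. Irf1 lay at the 78.5th percentile of the genes with a mean level of at least 10, Irf9 at the 20.3rd and Irf7 at the 2.19th. Ranges over the 9 libraries overlapped between Irf1 and Irf2, between Irf2 and Irf8, and between Irf3 and Irf5. These ranges hold fitted group and replicate terms, are not an error, and do not compare genes within a library. The overlap alone therefore does not settle the order within these neighboring pairs. Irf8 and Irf5 overlapped too, although not next to each other in the order. The ranges of Irf8 and Irf3 did not overlap, nor did those of Irf5 and Irf9, of Irf9 and Irf7, or of Irf7 and Irf4. The plot of levels per coding length shows that this order spans several powers of 10, whereas the groups of any 1 gene lie close together.

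**Figure D1:**
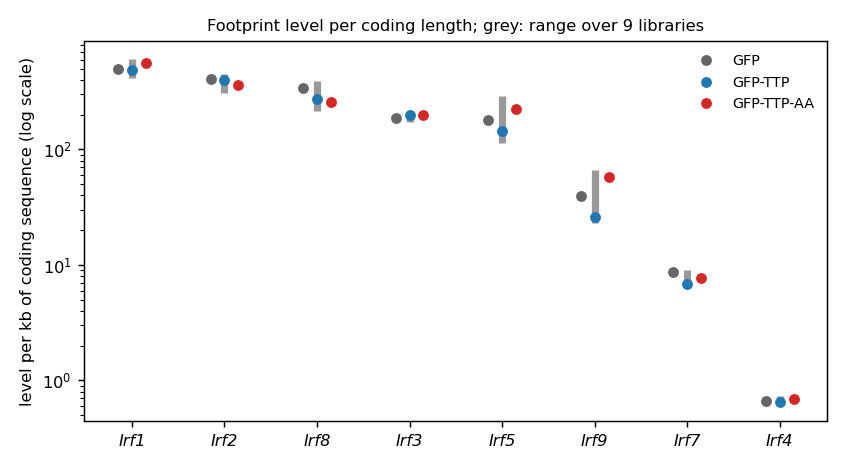
Footprint level per kb of coding sequence on a log axis for the 8 Irf genes, ordered by mean level. Dots are the geometric means of the 3 groups and grey bars run from the lowest to the highest of the 9 libraries. Irf1, Irf2, Irf8, Irf3 and Irf5 had means between 187.4 and 520.1 per kb, while Irf9, Irf7 and Irf4 stood apart at 41.2, 7.77 and 0.669.

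TTP recognizes AU-rich elements, so the 3′UTRs of the members were searched on the transcript strand for the pentamer ATTTA and for the longer TATTTAT, which always contains an ATTTA. One annotated transcript per gene was used (GENCODE, GRCm38). TATTTAT occurred once each in Irf1, Irf4 and Irf8, and was not found in the chosen 3′UTRs of Irf2, Irf3, Irf5, Irf7 and Irf9. Of 9961 genes with a mean level of at least 10 and an annotated transcript, 28.5% held TATTTAT and 67.6% held ATTTA. The TATTTAT sites are shown because they are the longest AU-rich matches in the family, with the motif in capitals and the sequence of the plus strand, on which these genes lie.

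Irf1, chr11:53777103-53777131: gcctttgcattTATTTATatagtgccttg
Irf4, chr13:30766400-30766428: tctgtttttgtTATTTATctccctaaatc
Irf8, chr8:120756613-120756641: tagtgtccaaaTATTTATttttgtattct

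The site of Irf1 starts 668 bases after the stop codon in a 3′UTR of 877 bases, that of Irf8 at 1449 of 1519 bases and that of Irf4 at 2744 of 3309 bases. Irf1 and Irf8 did not pass the test in any comparison, and Irf4 was not tested. Irf9 and Irf5 held ATTTA alone, once in the 999 bases of Irf9 and at 2 places in the 534 bases of Irf5. Their sites, again on the plus strand with ATTTA in capitals, are given for comparison with those above.

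Irf9, chr14:55609413-55609441: gactgaaataaaATTTAgctgggtgaggt
Irf5, chr6:29537170-29537198: agaataaccctgATTTAggggtcccctag
Irf5, chr6:29537271-29537299: acagaaagtagaATTTAatatatttttgg

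ATTTA was also common in 3′UTRs of similar length. It was present in 75.1% of genes whose 3′UTR was within 1.25-fold of the length of that of Irf9, and in 54.5% of genes in the same length window around Irf5. Irf2 held 1 ATTTA in 1236 bases, and none was found in Irf3 (502 bases) or in the short 3′UTR of Irf7 (42 bases). These are matches of letters, and whether TTP was bound at them was not tested here. The paper mapped RNA crosslinks of both fusions (iCLIP) in these macrophages, including after the same doxycycline and LPS treatment. Those crosslinks were not compared with the motif sites here.

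Irf3, which TBK1 phosphorylates after TLR4 engagement, had similar levels in the 3 lines. Its level was 237.7, 249.5 and 218.5 in the GFP libraries (replicates 1, 2 and 3), 251.8, 264.2 and 231.4 with GFP-TTP, and 254.7, 267.3 and 234.1 with GFP-TTP-AA. The groups overlapped, and no library lay more than 1.22-fold above another. The log2 fold change was 0.08 for GFP-TTP minus GFP (95% interval -0.27 to 0.44), 0.10 for GFP-TTP-AA minus GFP (-0.25 to 0.45) and 0.02 for GFP-TTP-AA minus GFP-TTP (-0.34 to 0.37). None passed the test, and the adjusted p-values were 0.93, 0.90 and 0.97.

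Irf7, the interferon-induced member that amplifies the type I interferon response, was just above the minimum level of 10 that was required for a test. Its level was 11.5, 12.1 and 12.5 with GFP, 9.04, 9.46 and 9.77 with GFP-TTP, and 10.1, 10.6 and 10.9 with GFP-TTP-AA. The GFP libraries were the highest and the GFP-TTP libraries the lowest, with no overlap among the fitted values. This does not measure the error of the group differences, as the groups share the replicate term. That term was small for Irf7, with a range of 0.11 on the log2 scale, at the 10.6th percentile of the genes kept. How many of all genes show such a separation was not counted. GFP-TTP against GFP could not be tested for Irf7 because the deposited table of that comparison held no SE for it. The log2 fold change was -0.19 for GFP-TTP-AA minus GFP (95% interval -0.62 to 0.24, adjusted p = 0.79) and 0.16 for GFP-TTP-AA minus GFP-TTP (-0.27 to 0.59, adjusted p = 0.74), so neither was separated from 0.

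Irf5, which acts below MyD88 on genes such as those of IL-12 and TNF, differed between the TTP lines. Its level was 265.5, 209.8 and 354.8 with GFP, 213.4, 168.6 and 285.1 with GFP-TTP, and 325.3, 257.0 and 434.7 with GFP-TTP-AA. The groups overlapped because the replicate term of Irf5 was large: replicate 3 was the highest and replicate 2 the lowest in each group. That term spanned 0.76 on the log2 scale, more than in 95.6% of the genes kept, against a median of 0.29. Within each replicate number the mutant line was the highest and GFP-TTP the lowest, an order that the fitted form fixes for all replicates at once. GFP-TTP-AA exceeded GFP-TTP by 0.61 on the log2 scale (SE 0.174, 1.52-fold, 95% interval 1.20-fold to 1.93-fold, adjusted p = 0.0087). The GFP line lay between them, 0.32 above GFP-TTP and 0.29 below GFP-TTP-AA on the log2 scale, and neither of those differences passed the test (adjusted p = 0.51 and 0.47). For Irf5 between the TTP lines, either 14.1% or 85.9% of the change survived shrinkage.

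Irf1, an interferon-γ-inducible activator, had the most footprints of the family. Its level was 415.5, 536.4 and 545.2 with GFP, 407.0, 525.4 and 533.9 with GFP-TTP, and 459.9, 593.7 and 603.4 with GFP-TTP-AA. Replicate 1 was low in every group, and the groups overlapped. The log2 fold change was -0.03 for GFP-TTP minus GFP (95% interval -0.52 to 0.46), 0.15 for GFP-TTP-AA minus GFP (-0.34 to 0.64) and 0.18 for GFP-TTP-AA minus GFP-TTP (-0.31 to 0.67), with adjusted p-values of 0.98, 0.89 and 0.75. The SE of 0.250 was the largest among the tested members, and the interval between the TTP lines reached from 0.804-fold to 1.59-fold. Of its coding sequence 100 bases (10.1%) overlap Gm17334 on the opposite strand, and whether counting used strand is not given in the sources used here.

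Irf2, which competes with IRF1 and mostly represses, also had similar levels in the 3 lines. Its level was 454.4, 472.9 and 357.4 with GFP, 444.0, 462.1 and 349.2 with GFP-TTP, and 407.8, 424.4 and 320.7 with GFP-TTP-AA. Here replicate 3 was low in every group, unlike for Irf5, and the groups overlapped. The log2 fold change of GFP-TTP-AA minus GFP-TTP was -0.12 (95% interval -0.42 to 0.18, adjusted p = 0.70), and the other comparisons gave -0.03 (-0.33 to 0.27) and -0.16 (-0.46 to 0.14) for GFP-TTP and GFP-TTP-AA minus GFP.

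Irf9, the DNA-binding subunit of ISGF3, had the largest differences of the family. Its level was 45.6, 42.5 and 55.4 with GFP, 29.6, 27.6 and 36.0 with GFP-TTP, and 65.9, 61.4 and 80.2 with GFP-TTP-AA. The fitted values of the 3 groups did not overlap: GFP-TTP was the lowest, GFP lay between, and GFP-TTP-AA was the highest. As the groups share the replicate term, this does not measure the error of the group differences. How many of all genes show such a separation was not counted. GFP-TTP-AA exceeded GFP-TTP by 1.16 on the log2 scale (SE 0.248, 2.23-fold, 95% interval 1.59-fold to 3.12-fold, adjusted p = 0.00016). This put Irf9 at the 99.0th percentile of log2 fold changes among the genes tested. Against GFP, the wild-type fusion was at -0.62 (SE 0.248, adjusted p = 0.23) and the mutant at 0.53 (SE 0.247, adjusted p = 0.27), and neither passed the test. The SE of Irf9 has 2 solutions for the part of its change that survived shrinkage, 43.1% or 56.9%, and the interval above covers the shrunken value only.

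Irf8, which directs the monocyte and macrophage lineage together with PU.1, was highest in the GFP line. Its level was 495.5, 450.7 and 359.8 with GFP, 401.0, 364.7 and 291.2 with GFP-TTP, and 376.3, 342.3 and 273.3 with GFP-TTP-AA. Replicate 3 was the lowest in each group, and the groups overlapped. The log2 fold change was -0.31 for GFP-TTP minus GFP (95% interval -0.65 to 0.04, adjusted p = 0.53) and -0.40 for GFP-TTP-AA minus GFP (-0.74 to -0.05, adjusted p = 0.24). Neither passed the test after adjustment. The TTP lines differed from each other by -0.09 (-0.44 to 0.25, adjusted p = 0.82).

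Irf4, a regulator of lymphoid cells and of alternative macrophage activation, had a level of 0.868 to 0.951 with GFP, 0.849 to 0.931 with GFP-TTP and 0.900 to 0.987 with the mutant. These values lie below the minimum of 10, so Irf4 was given no test, and at this level a difference between groups was not detectable.

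**Figure D2:**
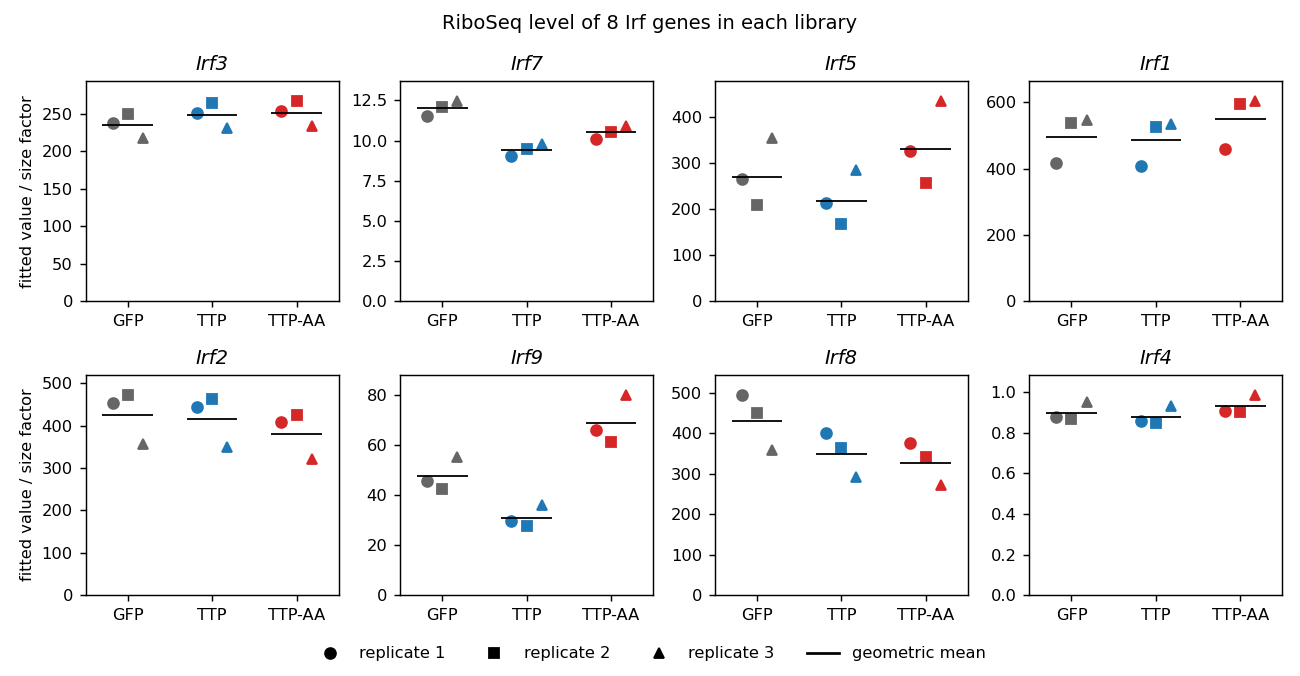
Level of each Irf gene (fitted value divided by the size factor, linear axis from 0) in the 9 libraries, with symbols for the replicate number and a line at the geometric mean of each group. TTP and TTP-AA stand for the GFP fusions. The fitted values of Irf9 ran from 27.6 to 36.0 with GFP-TTP and from 61.4 to 80.2 with GFP-TTP-AA. The shared replicate pattern, such as the high replicate 3 of Irf5, repeats in every group because the values are fitted.

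The comparison of the wild-type fusion with GFP asked what the wild-type protein changes in cells without endogenous TTP. No IRF passed the test among the 6 tested members, against 2.11% of the 9938 genes tested (210 genes). Irf9 was the 1 member with an unadjusted p under 0.05 (0.012). The median log2 fold change of the 6 was -0.17, against 0.00 over all genes. To be called in this comparison, the shrunken log2 fold change of a member would have had to reach 0.50 to 0.82, depending on its SE. The unshrunken change needed would be larger and was not computed.

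The comparison of the mutant fusion with GFP asked the same for a protein that MK2 cannot phosphorylate at these serines. No member passed the test among the 7 tested, against 3.09% of 10103 genes (312 genes). Irf8 and Irf9 had unadjusted p-values under 0.05 (0.024 and 0.031) and lay on opposite sides of 0. The median over the 7 members was 0.10. A shrunken change of 0.48 to 0.79 would have been needed for a call, and the unshrunken change needed would again be larger.

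The comparison between the mutant and the wild-type fusion asked what differs when the MK2 sites are lost. The line and the higher Zfp36 footprint level of the mutant are not told apart from the sites. Of 7 tested members 2 passed the test, Irf9 and Irf5, both higher with the mutant, against 10.3% of 10103 genes (1039 genes, 559 up and 480 down). The median over the 7 members was 0.16, against 0.00 over all genes. The other 5 members had adjusted p-values of 0.70 to 0.97. The comparisons share their groups, so the values of 1 gene in the 3 comparisons are not independent of each other.

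**Figure D3:**
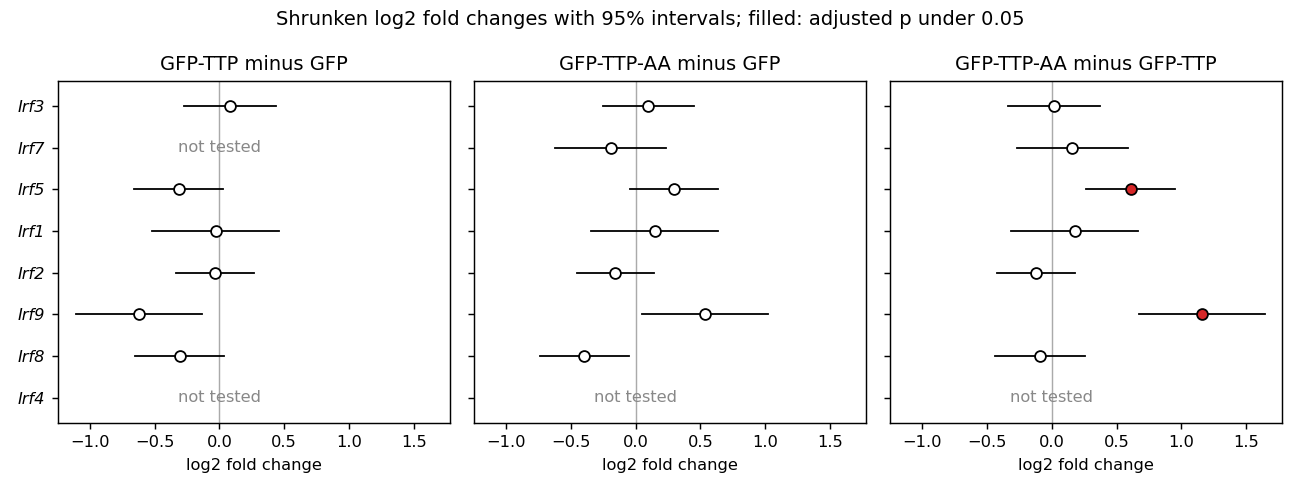
Shrunken log2 fold change of each Irf gene in the 3 comparisons, with 95% intervals of the shrunken values from the SE in the deposited tables. Filled circles passed the test, which only Irf9 (1.16) and Irf5 (0.61) did, both for GFP-TTP-AA minus GFP-TTP, and the intervals against GFP that leave out 0 (Irf9 in both comparisons, Irf8 for GFP-TTP-AA) did not pass after adjustment over all genes.

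Between GFP-TTP-AA and GFP-TTP, 3 of 7 tested macrophage markers passed the test, against 10.3% of all genes. They were higher with the mutant, as Irf9 and Irf5 were: Adgre1 (listed as Emr1, encoding F4/80) by 1.22 on the log2 scale, Fcgr1 by 0.71 and Lyz2 by 0.63. The other 4 did not pass, with log2 fold changes of 0.33 for Csf1r, 0.21 for Cd14, 0.19 for Cd68 and -0.0035 for Itgam. The summed level over all 8 markers, most of it from Lyz2, was 85794 to 104671 with GFP, 67990 to 81696 with GFP-TTP and 96996 to 118501 with the mutant. The neutrophil-associated gene S100a8 was higher by 1.12 (adjusted p = 0.00026). Summed levels of the neutrophil list were 20.2 to 37.7 with GFP-TTP and 43.9 to 81.9 with the mutant. Against GFP, the same 3 macrophage markers passed as lower with GFP-TTP (Adgre1 -0.68, Fcgr1 -0.95, Lyz2 -0.48). For the mutant against GFP, Adgre1 alone of the 7 passed (0.54), with Lyz2 at 0.15 and Fcgr1 at -0.24. The part of these differences in the values of Irf9 and Irf5 was not tested. The cells had been sorted for macrophage surface markers after immortalization. In such bulk libraries, fewer cells of a type and less RNA per cell cannot be told apart.

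Genes whose values over the 9 libraries were most like those of Irf9 and Irf5 were found by the distance between log2 values centered per gene, among 8440 genes with a mean of at least 50. The nearest to Irf9 were Bri3, Car13 and Gpr137b, at distances of 0.30 to 0.32, where the median gene was at 1.59. As the choice fixes, their differences between the TTP lines were close to that of Irf9, at 0.95, 1.02 and 0.95 on the log2 scale. Nearest to Irf5 were Crls1 (cardiolipin synthase), Ndufb5 (a subunit of respiratory complex I) and Mrpl54 (a mitochondrial ribosomal protein), at 0.13 to 0.22 against a median of 1.30. For these the difference was 0.55, 0.53 and 0.65, likewise fixed by the choice.

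The steps that activate IRF3 and IRF5 were followed in 14 genes from TLR4 to TBK1. Of all genes, 2.11% were called for GFP-TTP against GFP, 3.09% for GFP-TTP-AA against GFP and 10.3% between the TTP lines. These shares stand beside the counts of this list and of the lists below. The pathway lists were chosen with earlier results of these data known, so their counts are no independent test. None of the 14 passed the test for either TTP line against GFP. Between the TTP lines 1 of 14 did, which is no more than the share of all genes. This was Ly96, which encodes the TLR4 co-receptor MD-2, at 165.2 with GFP-TTP and 242.7 with the mutant (log2 fold change 0.55, SE 0.187, adjusted p = 0.035). Values of 13 of the 14 genes lay above 0 in that comparison, with a median of 0.34. Cd14, the LPS co-receptor and the most abundant of them, was at 9558, 10295 and 11889 with GFP, GFP-TTP and GFP-TTP-AA and did not pass (adjusted p = 0.37 between the TTP lines).

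Sensors of nucleic acids lead to IRF3 and IRF7 by other routes, and 8 of them were tested. Ifih1, encoding the RNA sensor MDA5, was at 49.3 with GFP, 19.4 with GFP-TTP and 104.0 with the mutant. It fell with GFP-TTP (log2 fold change -1.34, adjusted p = 1.5e-05) and rose with GFP-TTP-AA (1.08, adjusted p = 0.0013), both against GFP, and differed by 2.42 between the TTP lines. Ddx58, encoding the related sensor RIG-I, was at 104.1, 43.3 and 106.1, lower with GFP-TTP than with either other line (log2 fold change -1.26 against GFP). Tlr9, the endosomal DNA receptor, was higher with the mutant than with GFP-TTP (0.83, adjusted p = 0.014). The other 5 sensors did not pass in any comparison, among them Tlr7, the most abundant, and the median of the list between the TTP lines was 0.14.

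Of 10 tested genes for interferons, their receptors and the partners of IRF9, none passed the test between GFP-TTP and GFP. Ifnar1, a chain of the type I interferon receptor, was at 331.6 with GFP, 295.7 with GFP-TTP and 488.0 with the mutant. It was higher with the mutant than with GFP (0.56, adjusted p = 0.023) and than with GFP-TTP (0.72, adjusted p = 0.00029). The other receptor chain Ifnar2 (0.47) and the kinase gene Jak2 (0.68) also passed the test between the TTP lines, where all 10 genes had values above 0 and the median was 0.41. Jak1, the most abundant of the list, was nearly equal in the TTP lines (0.02, adjusted p = 0.95). Ifnb1, named after its values were seen, was at 13.7, 12.1 and 15.2 with GFP, GFP-TTP and the mutant and did not pass in any comparison.

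Among genes for partner and co-regulator proteins, none of 9 tested passed the test between GFP-TTP and GFP and none of 10 between GFP-TTP-AA and GFP. Between the TTP lines Spi1, which encodes the IRF8 partner PU.1 and is the most abundant of the list, was higher with the mutant (2782 against 2169, log2 fold change 0.36, adjusted p = 0.026). Ep300, encoding the acetyltransferase p300, was lower (445.2 against 616.1, -0.47, adjusted p = 0.025). Among 7 negative regulators Usp18, which blocks signaling at the type I interferon receptor, fell with GFP-TTP against GFP (77.4 to 28.7, -1.43, adjusted p = 1.1e-06). It was higher with the mutant than with GFP-TTP (1.11, adjusted p = 0.00022), as was Socs3, an inhibitor of cytokine receptor signaling (0.53, adjusted p = 0.031). Tnfaip3, encoding the ubiquitin-editing inhibitor A20 and the most abundant of these, did not pass (0.21, adjusted p = 0.56).

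Interferon-stimulated genes and other IRF targets held the most called genes of the lists. Between GFP-TTP and GFP, 7 of 26 tested genes passed the test, against 2.11% of all genes. All 7 were lower with GFP-TTP, and the list median was -0.40. The 4 with the smallest adjusted p-values were Oas3 (-1.31) and Oasl1 (-1.22), of the oligoadenylate synthetase family, Usp18 (-1.43), and Psmb8 (-0.83), an immunoproteasome subunit. Between GFP-TTP-AA and GFP, 3 of 26 passed, against 3.09% of all genes. These were higher with the mutant: Oasl1 (1.30), the guanylate-binding protein gene Gbp2 (1.06) and Cybb, encoding the phagocyte NADPH oxidase subunit (0.79).

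Between the TTP lines, 15 of the 26 target genes passed and were higher with GFP-TTP-AA, and none passed as lower, with a median of 0.80. The list was chosen with earlier results of these data known, so this count does not test enrichment independently. Over all genes 10.3% were called there: 5.53% of all genes as higher with the mutant and 4.75% as lower. Oasl1 was at 25.9 with GFP-TTP and 148.5 with the mutant (5.74-fold, adjusted p = 1.8e-24). Gbp3 (1.55), Gbp2 (1.49) and Oas3 (1.36) were next by adjusted p-value, and B2m, the most abundant target, differed by 0.85. The other 11 tested targets did not pass, although 9 of them had values above 0. Relative to this list, Irf9 lay above the median and Irf5 below it, as the plot of the pathway lists shows. Usp18 and Trim21 stand both in this list and among the negative regulators.

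**Figure D4:**
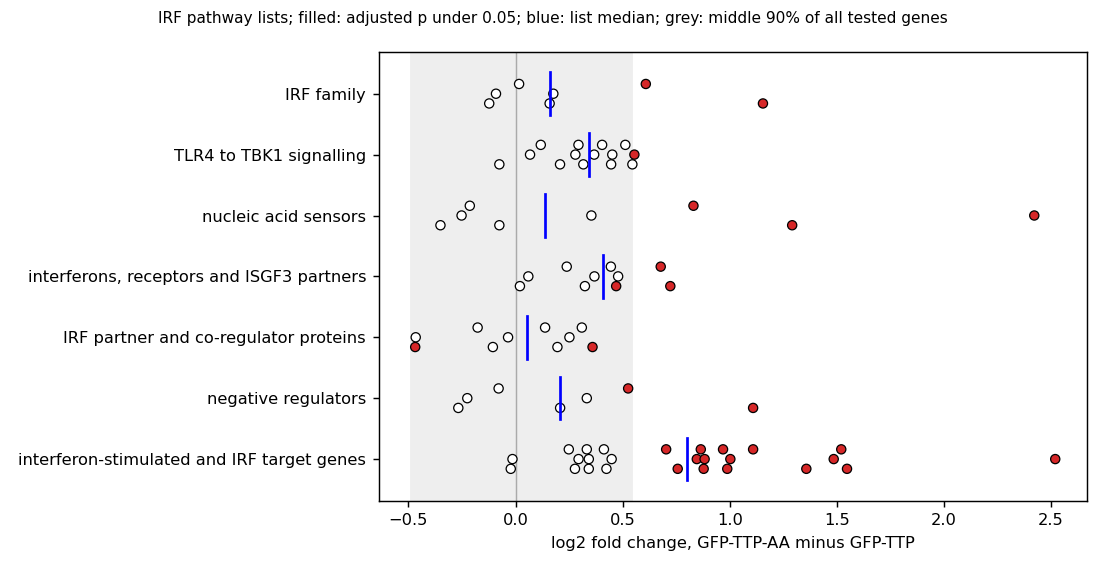
Log2 fold change of GFP-TTP-AA minus GFP-TTP for tested genes of the IRF family and 6 pathway lists, with 1 circle per gene, filled where the test was passed, and a blue line at the median of the list. The grey band holds the middle 90% of all tested genes (-0.49 to 0.54). Of the interferon-stimulated and IRF target genes 15 of 26 passed with a list median of 0.80, against 2 of 7 IRF genes with a median of 0.16. Over all genes 10.3% passed. The lists were chosen with earlier results of these data known.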

How the data were processed

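RiboSeq was analyzed in 9 libraries, 3 each of macrophages with GFP, GFP-TTP or GFP-TTP-AA, grouped by the sample labels. Ribosome-protected fragments were isolated by the authors with the ARTseq kit, depleted of rRNA, sequenced as 50 bp single reads and mapped to mm10 (GRCm38) with TopHat. The submitters' processing notes list TopHat2 2.0.12, Trim Galore, HTSeq and DESeq2 1.6.3. Reads could be kept at more than 1 place, so footprints of similar genes can be shared.

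The deposited signal table, named as normalized counts, holds values fitted by the authors' DESeq2 model with library date and condition. After group and replicate terms, log2 values left a residual SD of 1.48e-15. The deposited comparison tables hold shrunken log2 fold changes with SE, statistics and p-values per gene. Of these, the SE alone was used.

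Here, size factors were recovered from the fitted values (genes with a mean of at least 10), and log2 fold changes were computed without a pseudocount, as no value was 0. They were divided by the SE, and two-sided normal p-values were adjusted over all genes with a mean of at least 10 and an SE (threshold 0.05). The code was tested on simulated data. The files used here give no read totals, so depth enters through the SE. Python 3.11.15, NumPy 2.4.6, pandas 2.3.3, SciPy 1.17.1 and matplotlib 3.10.9 were used. Coding lengths and 3′UTRs came from GENCODE for GRCm38.

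Every Irf gene was named. Of each pathway list, genes past the threshold were named, at most 4 per list and comparison by smallest adjusted p, and the most abundant gene, with Zfp36 and the 3 nearest genes to each called member. Members and lists were chosen with earlier results of these data known. Alternatives were other filters, pseudocounts, centering, chromosome medians, joint adjustment and other size factors. Some looked-up genes are not reported here.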

Additional observations from a re-analysis of the deposited data

How the results depend on the processing

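All 155 recomputed log2 fold changes of the Irf genes kept their direction and their side of the threshold under the 8 alternatives, where those gave a value. Other filters and joint adjustment leave the fold changes as they are, so their direction was fixed there and only the adjusted p could move. The SE was the same under every alternative. Irf9 between the TTP lines ranged from 0.95 to 1.21 (adjusted p from 6.9e-05 to 0.0042) and Irf5 from 0.57 to 0.61 (adjusted p from 0.0087 to 0.019). With a mean of at least 50 required, 1 Irf gene in place of 2 was called between GFP-TTP-AA and GFP-TTP, because Irf9, with a mean of 49.4, was then not tested. With a pseudocount of 10, 200 in place of 312 genes were called between GFP-TTP-AA and GFP, a setting that reduces the fold changes of low genes while their SE stays. The other 46 of 48 counts stayed within 1.5 times. Size factors from all genes were an alternative chosen after seeing the data.

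No paired analysis was possible because the library term is already part of the authors' model behind every fold change and SE, and the fitted values hold nothing beyond group and replicate to refit. All reported tests are thus blocked on library date, and fits without that block and fits that leave out 1 library were not run. The level of Irf4 was too low for a test. Fold changes of all members are shrunken, by an amount with 2 solutions for each SE.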
